A study of Mus with 2 samples.

Results

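The T cluster of the kidney is the group of cells that the authors labelled T in their deposited comparison of senescent with young mice. Its genes were taken as the rows of that table carrying this label, with a mean signal of at least 0.1 in either library. This left 4317 genes of the 4368 listed for the cluster, out of 8191 distinct genes listed over 7 clusters. At the edge of this limit, Defb19 (0.101 young and 0.0137 senescent) was kept and Cadm1 (0.0989 and 0.0149) was not. Kidneys of C57BL/6 mice labelled young or senescent were digested with collagenase IV, pronase E and DNase I, and the cells were sequenced in droplets, with 1 library for each group. No treatment or genotype other than the strain is labelled. The sources used here do not give ages, sex, the number of mice pooled in a library or the number of cells in the T cluster. The series states 10895 cells for the young and 4408 for the senescent mice over the whole kidney.

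T cells recognise peptides on MHC molecules through a receptor whose alpha and beta chains bind the peptide and whose CD3 chains carry the signal into the cell. CD8 T cells recognise MHC class I and can kill target cells with granule proteins, whereas CD4 T cells recognise MHC class II and act mainly through cytokines and surface ligands. In the kidney, T cells sit in the interstitium between the tubules, and memory cells are known to accumulate in many tissues with age.

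Each value below is the authors' mean signal per cell of the cluster in 1 library, on a scale they set, so no error between mice can be attached to it. Paired values are given with the young mean first and the senescent mean second. A ratio is the senescent over the young mean, and a log2 ratio adds a pseudocount of 0.1 to both means. With 1 library per group no test between groups was possible, and an adjusted p quoted from the authors' deposited table measures spread between cells. That table holds a gene of the T cluster only where its p-value was under 0.05 and its absolute log2 fold change at least 0.36, so a listed gene had to differ and a gene that is not listed cannot be called unchanged. Sequencing depth is unknown.

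The label was compared with 15 T cell markers. All 15 were listed in the T cluster and in no other of the 7 clusters. Their summed means were 37.2 and 177, so T cell transcripts were present in both. Ccl5 alone gave 11.9 and 83.8 of these sums. Of 11 markers of natural killer cells only Tyrobp was listed, at 0.300 and 0.470, and Ncr1, Klrb1c, Eomes, Prf1 and Gzma were not. Markers of endothelium, fibroblasts and mural cells, podocytes and platelets were not listed in the cluster at all. A row needs a difference between the libraries, so a marker without a row may still be expressed. These rows therefore cannot show that the 15 markers were specific to T or that other cells were absent.

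Of the 4317 genes, 925 (21.4%) were at least 2-fold higher and 1264 (29.3%) at least 2-fold lower in the senescent library, and the median log2 ratio of all listed genes was -0.39. In any size, 1959 genes (45.4%) were higher. An adjusted p of at most 0.05 was reached in the authors' deposited table by 289 higher (6.69%) and 1050 lower genes (24.3%). These shares are the background for each count of group members below. Of the 925 genes, 628 had a young mean under 0.5 and 158 reached that adjusted p in the authors' deposited table, as did 851 of the 1264. The excess of lower genes turned direction in other selections. Among the 2572 genes with a mean of at least 0.5, 779 were higher against 770 lower (median 0.46), and without genes whose young mean was higher in PT, the proximal tubule cluster, 800 were higher against 747 lower (median 0.31). The smallest means above 0 were 0.0172 in young and 0.00170 in senescent cells. In the young library 51 listed genes stood at 0, and 69 had a mean exactly shared with another gene, against 11 genes in the senescent library. The young mean of Cd4, 0.116, was shared by 6 genes to the last digit, among them Cd40lg. Young means of this size therefore come in steps, and ratios over them are coarse.

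**Figure D1:**
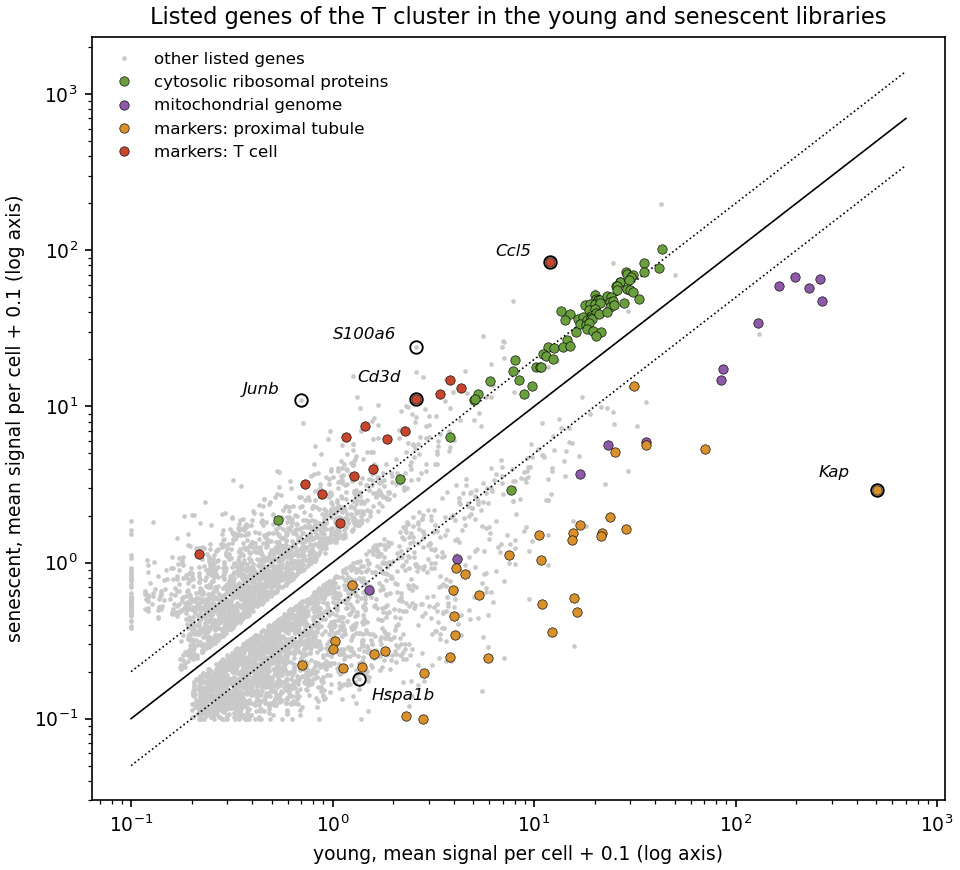
Mean signal per cell plus 0.1 of each listed gene of the T cluster in the young library (horizontal, log axis) and the senescent library (vertical, log axis). The solid line marks equal values and the dotted lines 2-fold differences, and open rings mark the genes named. On this deposited scale T cell markers and ribosomal protein genes lie above the solid line except for Rps27l, though on the CD3 scale the ribosomal median is -0.95, whereas proximal tubule markers and genes of the mitochondrial genome lie below it.

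The make-up of the listed signal differed between the libraries. Proximal tubule markers, of which 38 of 39 were listed, summed to 945 and 52.9, which was 11.4% and 0.671% of the listed signal. Genes of the mitochondrial genome took 18.2% and 4.80% of the listed signal. Cytosolic ribosomal protein genes took 18.4% and 39.5%, and the T cell markers 0.450% and 2.24%. How much these shares entered the ratios of the other genes was not tested.

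**Figure D2:**
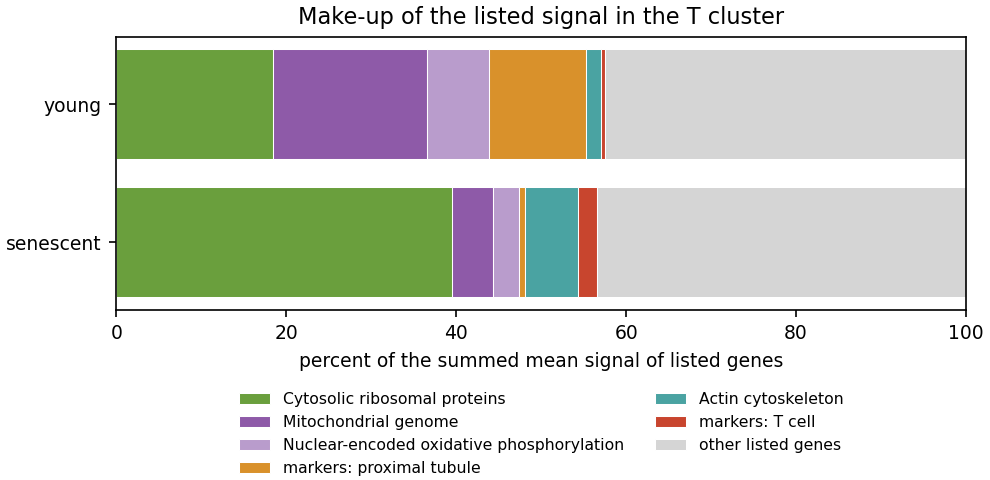
Percent of the summed mean signal of all listed genes in the T cluster that falls to each gene group (horizontal), with 1 bar per library. Proximal tubule markers made up 11.4% of the young and 0.671% of the senescent bar, and T cell markers 0.450% and 2.24%.

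Each functional group is also given on a second scale. On it the senescent library was divided by 3.88, the ratio of the summed means of Cd3d, Cd3e and Cd3g (8.40 and 32.6). On this CD3 scale a positive log2 ratio means that a gene was higher by more than the CD3 genes were. Of the 4317 genes, 424 (9.82%) were above 0 on the CD3 scale, 72 of them (1.67%) by at least 2-fold, whereas 2613 (60.5%) were at least 2-fold below. Of the 72, 39 had a young mean of 0, so their ratios are set by the pseudocount, and only 5 had a young mean of at least 0.5. The median of all listed genes moved by -0.86 to -1.26. Among genes past 2-fold, 42.3% were higher on the deposited scale and 2.68% on the CD3 scale. Scaling to the ribosomal protein genes, a division by 2.04, gave 11.6% and moved the median of all listed genes by -0.57 to -0.96.

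Genes of the T cell receptor and of its coreceptors were higher in the senescent library, though 6 of the 13 listed lay below 0 on the CD3 scale. Cd3d, a signalling chain of the receptor, was at 2.49 and 11.1, a ratio of 4.47. Cd3g was at 3.72 and 14.6, a ratio of 3.93. Cd3e was at 2.20 and 6.91, a ratio of 3.14. These neighbouring genes lie on chromosome 9 of the mouse build GRCm38, Cd3g from 44969572 to 44980431, Cd3d from 44981769 to 44987052 and Cd3e from 44998735 to 45009663, and all are annotated as protein coding. The receptor's constant regions followed, with Trac at 1.76 and 6.06, Trbc2 at 4.24 and 12.96, and Trbc1 at 1.06 and 6.25. Trbc1 and Trbc2 are close copies, so reads may be split between them.

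The coreceptors differed among themselves. Cd8a, the alpha chain of CD8, had the smallest ratio of the group at 1.70, with means of 0.988 and 1.68. Cd8b1, the beta chain, was at 1.18 and 3.48. Cd4 was at 0.116 and 1.03. The level of Cd4 relative to Cd8a was thus 0.118 in young and 0.614 in senescent cells. Relative to Cd8b1 it was 0.0982 and 0.296. Of these coreceptor genes, only Cd8b1 had an adjusted p of at most 0.05 (0.0186) in the authors' deposited table. On the CD3 scale the log2 ratio of Cd8a was -1.03 and that of Cd4 was 0.76. The young mean of Cd4 is the shared low value named above, so ratios that use it are coarse.

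In all, 13 of the 21 receptor and coreceptor genes were listed, all 13 higher and 12 of them at least 2-fold. Their median log2 ratio was 1.93, against -0.39 over all listed genes, and 0.02 on the CD3 scale, which 3 of the 13 define. The authors' deposited table gives an adjusted p of at most 0.05 for 6 of them, among these Cd3d at 4.88e-12 and Cd3g at 1.45e-09. Constant regions of the gamma and delta chains, Trdc among them, were not listed.

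**Figure D3:**
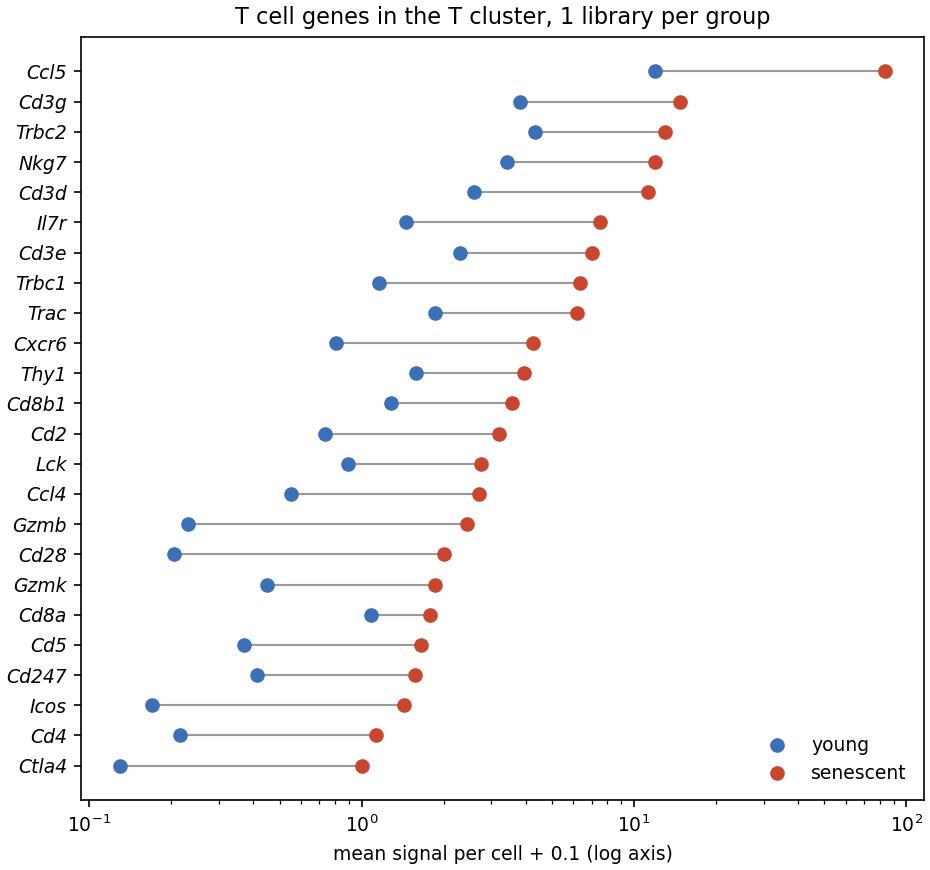
Mean signal per cell plus 0.1 (horizontal, log axis) of 24 T cell genes in the T cluster, with the young library in blue and the senescent library in red. Every gene shown was higher in the senescent library on the deposited scale (Cd8a, Cd3e, Trac and others lie below 0 on the CD3 scale), with the narrowest gap in Cd8a and wide gaps in Gzmb, Cd28, Icos and Ctla4, whose young means were low.

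Signalling genes below the receptor were higher as a group. Of 39 kinases, adaptors and GIMAP GTPases, 24 were listed, all 24 at least 2-fold higher, against 21.4% of all listed genes. Their median log2 ratio was 1.92, and 0.17 on the CD3 scale. Lck, the kinase that phosphorylates the CD3 chains, had means of 0.789 and 2.64. Gimap3 was at 0.845 and 6.11 and Gimap4 at 1.02 and 5.56. These GTPases support lymphocyte survival. Both passed in the authors' deposited table, at adjusted p values of 3.75e-05 and 0.00919, as did 3 of the 24 in all. The costimulatory receptors Cd28 (0.104 and 1.91) and Icos (0.0697 and 1.33) had the highest log2 ratios of the list, at 3.30 and 3.07. Ubash3a and Sla2, negative regulators of receptor signalling, had young means of 0 and senescent means of 0.721 and 0.501. Zap70 and Prkcq were not listed.

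Effector genes were led by the chemokine Ccl5, which attracts T cells and monocytes and is stored by memory CD8 cells. Ccl5 was at 11.9 and 83.8, a ratio of 7.06, which was 1.82 times the CD3 ratio. Ccl4 was at 0.452 and 2.60, and Cxcl12 (0.202 and 0.0338) and Cxcl16 (0.168 and 0.0891) were lower. These were the 4 listed of 23 chemokines, with a median of 0.89 that became -0.32 on the CD3 scale. Nkg7, which is needed for release of cytotoxic granules, was at 3.32 and 11.9, a ratio of 3.58 that lies below the CD3 ratio. Hcst, which encodes the adaptor DAP10 of the receptor NKG2D, was at 1.58 and 10.1.

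Granzymes were listed for Gzmb, which had means of 0.132 and 2.34, and Gzmk, which had means of 0.348 and 1.76. Fasl, the ligand of the death receptor FAS, and Serpinb9, an inhibitor of granzyme B, had young means of 0 and senescent means of 0.497 and 0.499. Of the 38 cytotoxic and natural killer genes, 14 were listed, all 14 higher and 12 at least 2-fold, with a median log2 ratio of 2.04 and 0.26 on the CD3 scale. The authors' deposited table gives an adjusted p of at most 0.05 for 5 of these, including Hcst (1.28e-10), Nkg7 (5.05e-06) and Srgn (8.89e-07). It gives 1 for Gzmb and Gzmk. The main killing genes Prf1 and Gzma and the cytokine gene Ifng were not listed.

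Receptors that restrain or steer T cells had some of the highest ratios, over very low young means. Ctla4, an inhibitory receptor that competes with CD28, had means of 0.0295 and 0.907. Tnfrsf4, which encodes the costimulatory receptor OX40, was at 0 and 0.965. Of 31 checkpoint and exhaustion genes 11 were listed, 10 higher and 9 at least 2-fold, with a median log2 ratio of 1.76 and 0.16 on the CD3 scale. Id2, a factor that favours effector cells, was at 2.76 and 9.59, and was the only higher member with an adjusted p of at most 0.05 (7.02e-07) in the authors' deposited table. The lower member was Eea1, an early endosome protein, at 1.14 and 0.551. Pdcd1, Lag3, Havcr2 and Tigit, the receptors most used to define exhaustion, were not listed.

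Of 16 genes of regulatory T cells, 5 were listed, all at least 2-fold higher, and their median was 2.96, or 1.36 on the CD3 scale. With their low young means this median depends on the pseudocount. It was the highest of the 28 functional lists here, but with a pseudocount of 1 it was 0.89 and 11 lists were higher, and with 0.01 it was 4.53. They were Capg, listed at 0 and 1.52, Tnfrsf4, Ctla4, Ikzf2 (0.286 and 1.17) and Il2rb (0.495 and 1.71). In the authors' deposited table none had an adjusted p of at most 0.05. The defining factor Foxp3 and Il2ra were not listed, and the same genes are also used by activated T cells. Among factors of helper and innate-like cells, 6 of 31 were listed, all at least 2-fold higher, with a median of 2.17 and 0.39 on the CD3 scale. Gata3, the factor of type 2 cells, was at 0.0597 and 0.987, Rora at 0.262 and 1.51 and Runx3, a factor of CD8 cells, at 0.767 and 2.54.

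Genes of naive and memory cells differed in direction. Il7r, the receptor for the survival cytokine IL-7, was at 1.35 and 7.39, a ratio of 5.45. Cd44, a marker of memory cells, was at 0.0917 and 1.19, and Ly6c2, which memory CD8 cells express, at 0.873 and 6.84. Of 27 genes on the list, 13 were listed, 11 higher and 2 lower, with a median log2 ratio of 1.88 that became -0.05 on the CD3 scale. Igfbp4 was lower, at 1.93 and 0.407, and so was Klf3, at 0.864 and 0.620. Of the naive-cell genes, Ccr7, Lef1 and S1pr1 were not listed, whereas Tcf7 was listed and higher.

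Cytokine receptors and their signalling genes had 18 of 34 members listed, 17 higher and 1 lower, with a median of 1.95 and 0.30 on the CD3 scale. Il18r1, a receptor chain for IL-18 found on effector cells, was at 0 and 1.42. Stat3 was at 0.126 and 1.16 and Tgfbr2, a receptor chain for TGF-beta, at 0.0817 and 0.864. Il6st, the shared receptor chain of the IL-6 family, was lower, at 0.372 and 0.0835, with an adjusted p of 0.00727 in the authors' deposited table. Only 1 higher member had an adjusted p of at most 0.05 there, and Il18r1, Stat3 and Tgfbr2 did not.

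Genes of migration and tissue residence were all higher among the 20 of 35 that were listed, 19 of them at least 2-fold, with a median of 2.09 and 0.25 on the CD3 scale. Ccr2, a receptor for monocyte-attracting chemokines, had the highest log2 ratio of the whole cluster, 4.20, at 0 and 1.74, a value that depends on the pseudocount. Cxcr6, a receptor of resident memory cells, was at 0.709 and 4.16. Rgs1, which dampens chemokine receptors in tissue T cells, was at 1.27 and 9.65, and Cd52, a surface glycoprotein of lymphocytes, at 7.80 and 47.0. The authors' deposited table gives adjusted p values of 0.0183 for Rgs1 and 1.67e-31 for Cd52, and of 0.194 for Ccr2 and 0.547 for Cxcr6. The residency integrin Itgae was not listed.

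**Figure D4:**
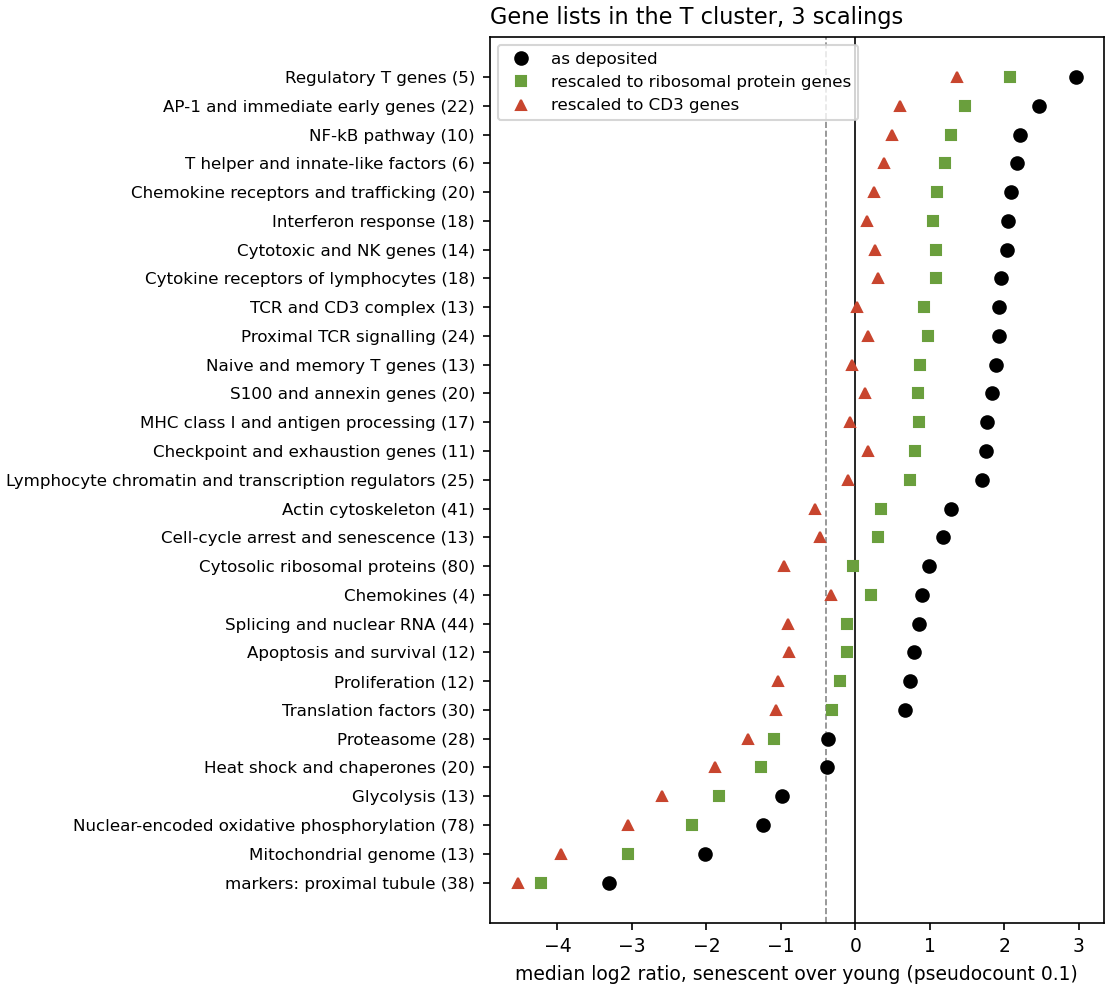
Median log2 ratio (horizontal) of each gene list with at least 3 listed members in the T cluster, and of the proximal tubule markers, with the number of listed members in brackets. Black circles show the deposited scale, green squares the scale set to ribosomal protein genes and red triangles the CD3 scale, and the dashed line marks the median of all listed genes on the deposited scale (-0.39). On the CD3 scale the receptor, signalling and trafficking lists lie near 0, the regulatory T, AP-1 and NF-kB lists at 1.36, 0.60 and 0.49, and the ribosomal, oxidative and tubule lists below 0. All medians use a pseudocount of 0.1, and on the deposited scale those of the regulatory T, AP-1 and NF-kB lists fall with a pseudocount of 1.

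Transcription factors of the AP-1 family and other immediate early genes respond within minutes to stimulation of the cell. Some of them, led by Junb, were among the genes highest beyond the CD3 ratio. Junb had means of 0.594 and 10.9, a ratio of 18.3, or 4.71 times the CD3 ratio, with an adjusted p of 6.05e-09 in the authors' deposited table. Fos was at 0.431 and 3.76. Dusp1, a phosphatase that ends MAP kinase signalling, was at 0.251 and 2.99, and Socs3 (0 and 0.828) and Dusp5 (0 and 0.794) were listed at 0 in the young. Jun had a smaller ratio of 2.56, at 0.891 and 2.28, and Jund 2.71, at 3.15 and 8.54, both under the CD3 ratio.

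Of the 45 immediate early genes, 22 were listed, 20 higher, 19 of them at least 2-fold, and 2 lower, with a median of 2.47 and 0.60 on the CD3 scale. Gadd45g, a stress-induced gene, was lower, at 0.762 and 0.196, and Gadd45a at 0.346 and 0.0972. Among NF-kB genes 10 of 28 were listed, 9 higher, with a median of 2.21 and 0.49 on the CD3 scale. Both medians depend on the pseudocount. With a pseudocount of 1 that of the immediate early list was 1.14 and that of the NF-kB list 0.56 on the deposited scale, below the 1.31 of the receptor list. Nfkbia, the inhibitor that NF-kB induces, was at 0.418 and 2.54, and the survival gene Bcl2a1b at 0.184 and 1.94. The lower member was Tnfaip8, a regulator of cell death, at 3.13 and 1.64. No adjusted p in the authors' deposited table was at most 0.05 for any of the 10.

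Inducible HSP70 genes were lower. Hspa1b, an HSP70 chaperone induced by protein-damaging stress, was at 1.26 and 0.0797, 15.8-fold lower, with an adjusted p of 1.10e-06 in the authors' deposited table. Its close copy Hspa1a was at 0.494 and 0.0130, with an adjusted p of 0.681 there. The mitochondrial chaperones Hspd1 (5.65 and 1.56) and Hspe1 (12.4 and 5.14) were also lower. Over the list, 20 of 40 were listed, 7 higher and 13 lower, with a median of -0.38, close to the -0.39 of all listed genes.

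Genes of MHC class I and of interferon responses were higher, the former by no more than the CD3 genes at the median. B2m, the light chain of MHC class I, had means of 6.90 and 26.0, and the heavy chain H2-K1 had means of 6.95 and 25.7, with ratios of 3.77 and 3.70 that lie just under the CD3 ratio. Of 26 genes of class I presentation 17 were listed, 16 higher and 15 at least 2-fold, with a median of 1.76 that became -0.07 on the CD3 scale. Canx, a chaperone of the endoplasmic reticulum, was the lower member, at 1.53 and 1.19. Among interferon response genes, 18 of 55 were listed, all higher and 17 at least 2-fold, with a median of 2.05 and 0.16 on the CD3 scale. Only 3 of the 18 had an adjusted p of at most 0.05 in the authors' deposited table. Ly6e, an interferon-induced surface protein, was at 1.22 and 11.4, a ratio of 9.36, with an adjusted p of 2.74e-14 in the authors' deposited table. Ifit1 was at 0 and 0.754. Ifng and Irf7 were not listed.

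The proteasome divided by subunit. Interferon-induced subunits replace the constitutive ones in immunoproteasomes, which immune cells use. Psmb8 had means of 2.097 and 9.31, whereas Psmb5, which it replaces, had means of 2.41 and 1.62. The ratio of Psmb8 to Psmb5 was therefore 0.871 in young and 5.76 in senescent cells. Psmb9 (0.716 and 2.40) stood against Psmb6 (2.15 and 1.32), a ratio of 0.333 and 1.82. Psmb10 (0.306 and 1.96) stood against Psmb7 (0.989 and 0.515), a ratio of 0.309 and 3.81. These ratios between subunits do not depend on the scale of a library. The activator subunits Psme1 (2.39 and 5.60) and Psme2 (1.29 and 3.36) were also higher, but by less than the CD3 genes, at -0.69 and -0.53 on the CD3 scale. Over the whole family 28 subunits were listed, 13 higher and 15 lower, with a median of -0.37 (-1.45 on the CD3 scale). The higher share, 46.4%, is near the 45.4% of all listed genes. The authors' deposited table gives adjusted p values of 5.39e-09 for Psmb8, 0.00107 for Psmb6 and 0.0461 for Psmb7, and of 1 for Psmb5, Psmb9 and Psmb10. In PT, where Psmb8, Psmb9 and Psmb10 were not listed, the constitutive subunits had higher young means than in T, with Psmb5 at 4.62, Psmb6 at 3.02 and Psmb7 at 1.67.

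Calcium-binding S100 proteins and annexins, many of which mark activated and migrating T cells, had 20 of 27 members listed, 19 higher and 1 lower, with a median of 1.83 and 0.12 on the CD3 scale. S100a4 was at 1.16 and 15.6, a ratio of 13.5, and S100a6 at 2.49 and 23.99, a ratio of 9.62. These neighbours lie on chromosome 3 of GRCm38, S100a4 from 90603770 to 90606045 and S100a6 from 90612894 to 90614414. Crip1, a LIM protein, was at 2.497 and 16.6, and Ahnak, a scaffold linked to calcium channels in T cells, at 0.440 and 3.68. The authors' deposited table gives adjusted p values of 7.24e-07 for S100a4, 7.89e-13 for S100a6, 1.75e-12 for Crip1 and 0.00179 for Ahnak. S100a1, which tubule cells also express (5.60 in young PT), was the lower member, at 3.60 and 0.503.

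Actin and its regulators, which drive T cell movement, were higher in all 41 listed members of 49, 30 of them at least 2-fold, with a median of 1.29 that became -0.54 on the CD3 scale. Tmsb4x, which binds free actin, was at 42.4 and 198, a ratio of 4.66, with an adjusted p of 8.69e-56 in the authors' deposited table. Arhgdib was at 2.21 and 9.95, and Vasp, which extends filaments, at 0.219 and 1.41. Arpc3, of the Arp2/3 complex, had the smallest difference, at 2.82 and 3.75.

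Cytosolic ribosomal protein genes were higher in 79 of 80 listed members, but by less than the T cell genes. Their median log2 ratio was 0.99, 40 were at least 2-fold higher, and on the CD3 scale the median was -0.95, with 1 member above 0. Rpl12 was at 13.5 and 40.6 and Rps27 at 28.5 and 72.1. Rps27l, a relative of Rps27 that p53 induces, was the only lower member, at 7.59 and 2.81. Translation factors were higher in 28 of 30 listed members, with a median of 0.66, which became -0.31 on the ribosomal and -1.07 on the CD3 scale. Splicing factors and nuclear RNAs were higher in 43 of 44 listed members, with a median of 0.86 that became -0.11 and -0.90. The exception there was Neat1, a nuclear noncoding RNA, at 3.205 and 1.504.

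Lymphocyte transcription and chromatin regulators were higher in 24 of 25 listed members of 42, with a median of 1.70 that became -0.10 on the CD3 scale. Ets1 was at 0.710 and 3.58 and Ikzf3, of the Ikaros family, at 0.0794 and 0.897, whereas the nucleosome-binding Hmgn1 was lower, at 1.46 and 1.09. The arrest list, which covers cell-cycle arrest and senescence, also holds cyclins, so its count does not describe arrest genes alone. Of its 26 members 13 were listed and 12 of these were higher, with a median of 1.17 that became -0.48 on the CD3 scale. The higher members included Ccnd2, a cyclin of lymphocyte growth, at 1.17 and 5.19. The p53 regulator Mdm2 was at 0.0364 and 0.347, and the inhibitor Cdkn1b at 0.406 and 1.46. Only Ccnd2 (0.0331) and another cyclin (0.0224) among the higher members had an adjusted p of at most 0.05 in the authors' deposited table. The lower member was Glb1, which encodes the lysosomal beta-galactosidase used as a stain for senescent cells, at 0.489 and 0.164. The senescence markers Cdkn1a and Cdkn2a were not listed in the T cluster. Proliferation genes had 12 of 37 listed, 9 higher and 3 lower, with a median of 0.74 that became -0.20 on the ribosomal and -1.04 on the CD3 scale. Mki67 was not listed, and Top2a was at 0.101 and 0.484.

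Transcripts of the mitochondrial genome stood lower on each scale used. All 13 that code for proteins were at least 2-fold lower, with a median log2 ratio of -2.02 (-3.95 on the CD3 scale). For 12 the authors' deposited table gives an adjusted p of at most 0.05. The gene of cytochrome b, mt-Cytb, was at 269 and 47.1. The range ran from -1.18 for mt-Nd6 to -2.59 for mt-Nd4l. Nuclear-encoded subunits of oxidative phosphorylation were lower in 77 of 78 listed members, 60 of them at least 2-fold, with a median of -1.24 (-3.06 on the CD3 scale). Ndufb6, of complex I, was at 4.43 and 0.867, and Cycs, cytochrome c, at 11.3 and 2.40. Cox7a2l, which helps assemble respiratory supercomplexes, was the exception, at 2.16 and 2.82, though it was lower by 1.45 on the CD3 scale.

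Glycolysis genes differed in direction. Ldhb, a lactate dehydrogenase subunit, was at 7.94 and 0.886, with an adjusted p of 1.57e-15 in the authors' deposited table. Hk1 (0.118 and 0.648) and Pkm (0.638 and 1.76) were higher on the deposited scale, and Pkm was at -0.41 on the CD3 scale. In all 3 were higher (23.1%, against 45.4% of all listed genes) and 10 lower of 13 listed, with a median of -0.98 (-2.60 on the CD3 scale). Among apoptosis genes 7 were higher (58.3%, against 45.4% of all listed genes) and 5 lower of 12 listed. Their median of 0.79 became -0.12 on the ribosomal and -0.89 on the CD3 scale. Casp1 (0.0867 and 0.730), which matures IL-1 and IL-18, was higher, and Aifm1 (1.32 and 0.221), a mitochondrial flavoprotein, was lower.

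Proximal tubule genes were lower, and Kap, an androgen-induced gene of the kidney, had the lowest log2 ratio of the cluster, at -7.43. Its means were 505 and 2.82, 179-fold lower, against 719 and 21.4 in PT. Acy3 was 82.8-fold lower, at 15.7 and 0.190, and Inmt, a methyltransferase, 109-fold lower, at 5.44 and 0.0501. Slco1a1, an organic anion transporter, was at 2.70 and 0. All 38 listed markers were lower, 37 of them at least 2-fold, with a median log2 ratio of -3.30, and -4.54 on the CD3 scale. Markers of the loop of Henle had 7 of 12 listed with low means, summing to 3.99 and 1.27, and those of the distal and collecting duct 3 of 14, summing to 0.584 and 0.160. Of the 1264 genes at least 2-fold lower, 920 (72.8%) had a row in PT too, 517 of them with a higher young mean there than in T. Of the 925 genes at least 2-fold higher, 517 (55.9%) were listed in PT, and 125 had a higher young mean there.

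Few markers of other immune cells were listed, which does not show that the others were absent. Igkc, the immunoglobulin kappa constant region, was the only one of 24 B and plasma cell markers listed, at 0.610 and 7.77 in the T cluster, against 38.1 and 120 in the B cluster. Of 25 macrophage and monocyte markers 4 were listed, Ccr2, Apoe (0.221 and 3.26), Plac8 (0.246 and 1.54) and Cst3 (1.17 and 1.84), summing to 1.64 and 8.38. C1qa, Csf1r, Adgre1 and Lyz2 were not listed in T. In Marco, the macrophage cluster, Apoe had means of 9.02 and 144. Neutrophil markers were S100a9 (0.0172 and 0.528) and G0s2 (1.14 and 0.184), 2 of 17. Of 9 markers of innate lymphoid cells, Gata3 and Rora were listed, both also on the helper list. The part that such transcripts have in the ratios of Ccr2, Lgals3 (0 and 0.770) or Capg, which macrophages also express, was not tested.

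The B and Marco clusters, labelled as other immune cells, come from the same libraries as T. Of the 4317 genes of T, 2220 were also listed in B and 2741 in Marco, and 1131 (26.2%) in neither. Among the genes at least 2-fold higher in T, 225 (24.3%) were listed in neither, and among those at least 2-fold lower, 148 (11.7%). Those in neither included Gzmb, Cd28, Icos, Ctla4, Il18r1, Cxcr6 and Gata3, besides the 15 T cell markers. In any size of difference, 45.4% of the genes of T were higher in the senescent library, against 28.3% of the 3075 genes of B and 58.3% of the 4462 of Marco. No test of a difference between clusters was possible with 1 library per group.

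Psmb8 and B2m had ratios close to each other in these clusters. Psmb8 was at 2.097 and 9.31 in T, at 1.16 and 5.07 in B and at 0.962 and 4.10 in Marco. B2m was at 6.90 and 26.0 in T, at 4.22 and 15.0 in B and at 4.92 and 21.6 in Marco. Other genes stood further apart. Hspa1b was lower in each cluster, over low senescent means, at 1.26 and 0.0797 in T, at 0.552 and 0.0343 in B and at 1.15 and 0.137 in Marco. Kap was 179-fold lower in T, 401-fold in B (499 and 1.24) and 286-fold in Marco (642 and 2.24). Junb was at 0.594 and 10.9 in T, at 1.43 and 4.93 in B and at 0.933 and 15.6 in Marco. Fos was at 0.431 and 3.76 in T, at 0.716 and 7.49 in B and at 0.941 and 31.8 in Marco. Ly6e had a young mean of 6.67 in B against 1.22 in T, and senescent means of 17.2 and 11.4. S100a6 was at 2.49 and 23.99 in T and at 0.672 and 2.32 in B.

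**Figure D5:**
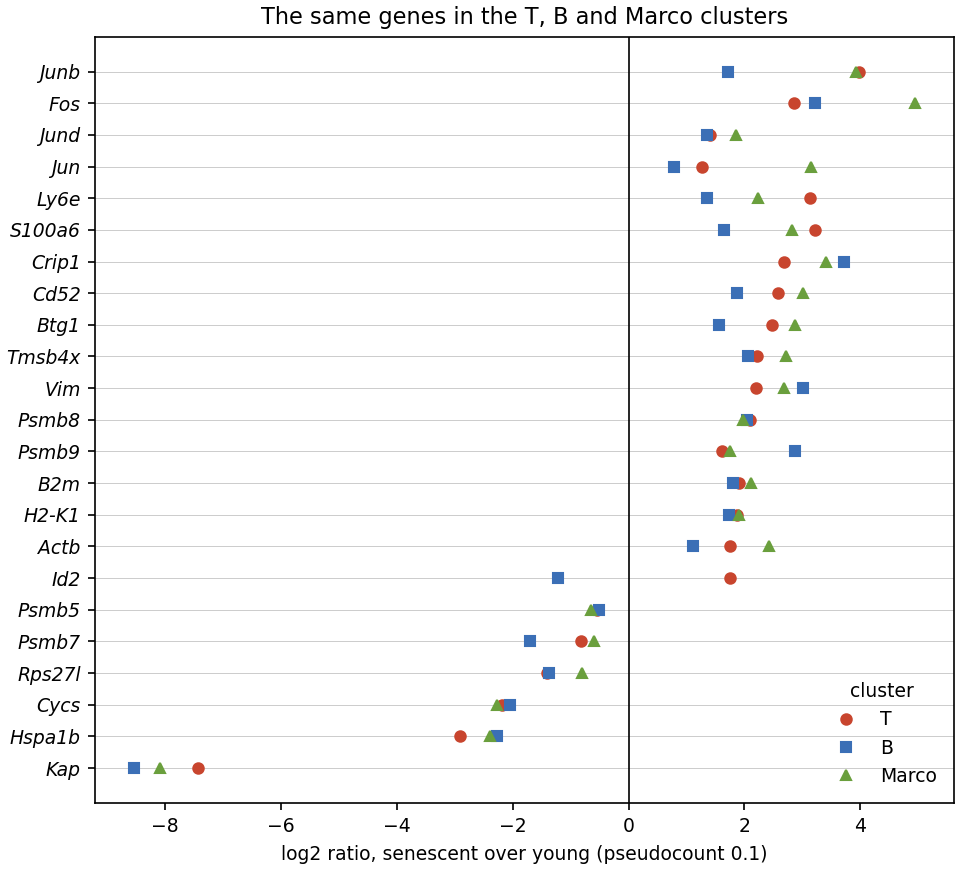
Log2 ratio of senescent over young means with a pseudocount of 0.1 (horizontal) for 23 genes in the T (red circles), B (blue squares) and Marco (green triangles) clusters, where listed. Most genes lie on the same side of 0 in each cluster, the AP-1 genes are spread widely, and Id2 lies at 1.76 in T and -1.21 in B.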

How the data were processed

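The members and gene lists were chosen with earlier results of these data known. The submitters' processing notes name Cell Ranger 2.1.1 and the build mm10. The deposited table holds, per cluster and gene, a signal averaged by the authors over cells of each library, their log2 fold change, and their p-value and adjusted p-value. How cells were filtered and clustered, how the signal was scaled, how doublets and free RNA were handled and which test was used is not given in the sources used here. Columns were matched to libraries by the sample descriptions. The table names its contrast C57 against WT, which the sources do not explain, so directions rest on those descriptions.

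Computed here were ratios, log2 ratios (pseudocount 0.1) and list medians (at least 3 listed members) over genes with a mean of at least 0.1, and calls at 2-fold. The code was tested on simulated data. The naming rule took the 8 highest and 8 lowest log2 ratios, every T cell marker and 6 members of each list with the largest absolute log2 ratio. Of the genes in the text, Cd40lg, Eea1, Igfbp4, Klf3, Il6st, Jun, Jund, Gadd45g, Gadd45a, Tnfaip8, B2m, H2-K1, Canx, Psmb5, Psmb6, Psmb7, S100a1, Arpc3, Neat1, Hmgn1, Glb1, mt-Nd6 and Cox7a2l, those at the limit of the mean and those named only in the closing part fall outside it. They and Tcf7, which also falls outside the rule, were picked with their values known. Symbols matched the RefSeq table of GRCm38.p6, the same build, for 4272 genes (99.0%). No sequence is printed. Python 3.11.15, numpy 2.4.6, pandas 2.3.3 and matplotlib 3.10.9 were used. Alternatives were pseudocounts of 1 and 0.01, minimum means of 0.5 and none, folds of 1.5 and 4, the authors' adjusted p, removal of genes higher in young PT, and scaling to CD3 or ribosomal protein genes.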

Additional observations from a re-analysis of the deposited data

Results flagged for a closer look

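The T and B clusters differed in direction for the checkpoint and exhaustion list and for Id2 and Ddit3, where the untested difference of log2 ratios between T and B was 2.91, 2.97 and 2.88. The list's median log2 ratio was 1.76 over 11 listed members in T and -1.15 over 4 in B. Only 2 members, Id2 and Eea1, were listed in both, and Eea1 was lower in each, so the medians compare mostly different genes. Id2, which favours effector lymphocytes, had young and senescent means of 2.76 and 9.59 in T and of 2.28 and 0.925 in B. Ddit3, a factor of the unfolded protein response, was at 0.0888 and 0.437 in T and at 0.560 and 0.155 in B. In the authors' deposited table Id2 had an adjusted p of 7.02e-07 in T. None of the 4 checkpoint members listed in B, Id2 among them, reached 0.05 there, nor did Ddit3 in T. Each difference rests on 1 library per group and was not tested.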

How the results depend on the processing

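The 925 higher and 1264 lower genes at 2-fold became 227 and 317 with a pseudocount of 1, 72 and 2613 on the CD3 scale, 277 and 2113 on the ribosomal scale, and 244 and 388 at 4-fold. At 1.5-fold 1482 were higher. With a mean of at least 0.5, 779 were higher and 770 lower (median 0.46), and without genes higher in young PT 800 and 747 (median 0.31), so the excess of lower genes and the sign of the median turned in both. With the authors' adjusted p 158 were higher. The cause of these shifts was not tested beyond the construction of each alternative. Of 28 functional lists, 23 had a median above 0, against 12 on the CD3 scale. Among genes past the authors' adjusted p, 15 of the 20 lists that kept enough members did. On the CD3 scale the medians of 11 lists changed sign, the naive and memory (-0.050), MHC class I (-0.068), actin (-0.54), arrest (-0.48), chromatin (-0.10), chemokine (-0.32), apoptosis (-0.89), ribosomal (-0.95), translation (-1.07), proliferation (-1.04) and splicing (-0.90) lists. So did the log2 ratios of 25 named genes, Cd8a (-1.03), Tyrobp (-0.86), Cst3 (-1.15), Arpc3 (-1.45), Cox7a2l (-1.45), Cd3e (-0.29), Trac (-0.16), Trbc2 (-0.34), Cd8b1 (-0.36), Lck (-0.19), Nkg7 (-0.11), Id2 (-0.16), Il2rb (-0.14), Runx3 (-0.20), Jun (-0.53), Jund (-0.50), B2m (-0.043), H2-K1 (-0.068), Psmb9 (-0.18), Psme1 (-0.69), Psme2 (-0.53), Rpl12 (-0.36), Rps27 (-0.62), Cdkn1b (-0.091) and Pkm (-0.41). No paired analysis was possible because each group had 1 library. Depth and cell numbers are unknown, and listing required a difference.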

Other observations

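A few genes differed in direction between T and Marco, the macrophage cluster, both taken from the same libraries. Of the 2741 genes listed in both, 14 (0.511%) were at least 2-fold lower in T and at least 2-fold higher in Marco, and 1 went the opposite way. The 3 with the lowest ratios in T, picked with their values known, are given here. This difference between clusters was not tested. Ctsh, a lysosomal protease, was at 1.501 and 0.144 in T and at 2.44 and 8.28 in Marco. Lgmn, the protease legumain, was at 1.64 and 0.331 in T against 1.86 and 5.76 in Marco. Cd81, a tetraspanin, was at 2.29 and 0.590 in T and at 3.24 and 9.58 in Marco.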
